A study of Mus musculus with 6 samples.

Results

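Slit, Robo, netrin and Dcc genes were followed in the cerebral cortex of newborn mice with and without an intact Fezf2 gene. They are 9 genes, chosen by name from a table of 23016 genes: the ligand genes Slit1, Slit2, Slit3, Ntn1 and Ntn4 and the receptor genes Robo1, Robo2, Robo3 and Dcc. Cortex was dissected at postnatal day 0 from 3 Fezf2+/+ pups, labelled wild type, and 3 Fezf2-/- pups, labelled Fezf2 KO, all born to heterozygous parents. Each brain gave 1 library of total RNA, prepared with the Illumina TruSeq protocol and sequenced on a Genome Analyzer II. In both genotypes libraries 1 and 2 came from litter m1 and library 3 came from litter m2. The knockout is not described further in the sources used here, neither the part of the gene removed nor the strain.

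Slits are large secreted proteins with leucine-rich and EGF-like repeats, and they repel axons and migrating neurons that carry Robo receptors. Netrins are laminin-related secreted proteins. Dcc is the receptor through which the netrin encoded by Ntn1 attracts axons, and Unc5 receptors turn the response into repulsion. In the forebrain these systems are known for guiding corticofugal, thalamocortical and callosal axons around and across the midline. Fezf2 is a zinc finger transcription factor that specifies the deep-layer neurons whose axons leave the cortex.

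Levels are normalised read counts, with the reads of a gene scaled by the size factor of its library, and a run of 3 values always follows libraries 1, 2 and 3 of a genotype. Libraries held 44978380 to 52872577 gene reads. Fezf2 itself was at 5030, 5928 and 5396 in wild type libraries against 1989, 1377 and 1533 in the knockouts, so the genotypes did not overlap. Markers of cortical excitatory neurons were present in every library, among them Neurod2 at 27334 to 35794 and Neurod6 at 12003 to 15269. The 7 markers of that list summed to 107712 to 115160 in wild type and to 115979 to 132833 in Fezf2 KO, and 0 of them passed limma. No listed marker was at 0 in all 6 libraries. Of the 8 lists of other cell types, 3 had sums that differed by more than 2-fold between libraries. The 8 meningeal fibroblast markers summed to 7577 in wild type 1 and to between 781 and 1319 in the other 5 libraries. The 7 choroid plexus markers summed to 9682 in Fezf2 KO 1 and to between 188 and 294 in the others. The 11 markers of striatal neurons, which lie under the cortex, summed to 7636 to 10688 in wild type against 3518, 8140 and 4784 in the knockouts. Of these striatal markers 0 passed limma. At an unadjusted p under 0.05 in limma, 10 passed, all lower in Fezf2 KO, beside 4.37% of all genes tested. Their median log2 difference over the list was -1.19. Of all 66 listed markers 1 passed limma, beside 0.712% of all genes tested. This was Sp8 of the olfactory bulb list, higher in Fezf2 KO (log2 difference 0.43, limma adjusted p = 0.0457).

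No Slit, Robo, netrin or Dcc transcript passed the test for a difference between genotypes. Each of the 9 genes passed the filter on low values (at least 10 in at least 3 libraries), and limma on log2 of the count plus 1 called 0 of them at a Benjamini-Hochberg adjusted p under 0.05. That rule called 0.712% of the 17557 genes tested. At an unadjusted p under 0.05 the count was also 0 of 9, against 9.03% of all genes, and edgeR and DESeq2 on the recovered reads called 0. That unadjusted count ranged from 0 to 2 over the 16 alternatives. Over the 17557 genes kept by the filter it ranged from 1211 (litter m1 alone) to 1851 (litter as a replicate block). Dcc passed with litter as a replicate block, without wild type 1, and with library 1 of both genotypes left out. Robo2 passed in litter m1 alone, and Robo2 and Dcc passed without Fezf2 KO 3. Slit3 passed without wild type 2, and like Dcc and Robo2 it was higher in Fezf2 KO. Slit1 passed without wild type 3 and Robo3 without Fezf2 KO 2, both lower in Fezf2 KO. In 0 of the 9 genes did the genotypes separate without overlap, which they did in 14.5% of the genes tested. The median log2 difference of the 9 genes, Fezf2 KO minus wild type, was 0.07, beside 0.0025 over all genes tested. How narrowly each gene was measured differed widely, from Robo2, with a 95% interval of 0.982 to 1.16 for the fold, to Slit3, with one of 0.857 to 3.11. In these whole-cortex libraries fewer expressing cells and less RNA per cell cannot be told apart.

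**Figure D1:**
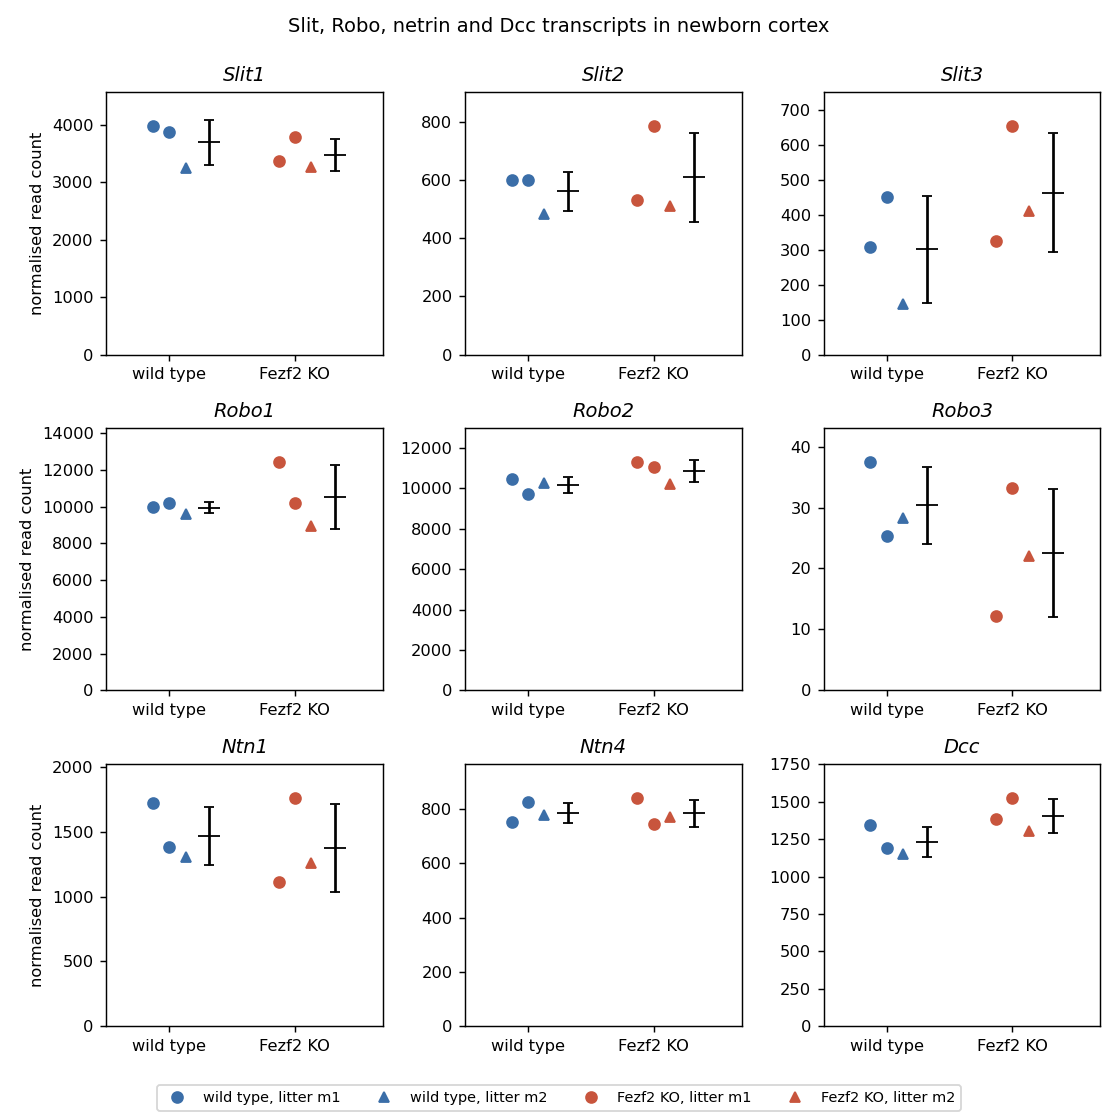
Normalised read count (vertical axes, from 0) of the 9 genes in each library, with wild type in blue and Fezf2 KO in red, circles for litter m1 and triangles for litter m2. Bars are the mean ± SD of the 3 libraries of a genotype, and in every panel the genotypes overlap.

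Levels of different genes were compared per kilobase of exon, using the union of coding transcripts in GENCODE M21, which may differ from the authors' gene models. Robo1 and Robo2 had the highest levels, with 1314 ± 40.6 and 1140 ± 44.9 per kilobase in wild type (SD, n = 3). They did not overlap in wild type, where Robo1 spanned 1270 to 1350 and Robo2 spanned 1089 to 1176. Their ranges did overlap in Fezf2 KO, although Robo1 was above Robo2 within each library (1641 and 1267, 1351 and 1240, 1185 and 1147). Slit1 followed with 632 ± 67.0, then Ntn1 with 241 ± 36.7 and Ntn4 with 215 ± 10.3, whose ranges overlapped. Dcc had 119 ± 9.92. Slit3, with 57.4 ± 29.4, and Slit2, with 55.9 ± 6.67, could not be ordered. Robo3 was lowest with 5.93 ± 1.23. The order of the means was the same in Fezf2 KO.

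Slit1, the Slit with the highest level per kilobase in these libraries, had 3970, 3874 and 3249 normalised reads in wild type. In the knockouts it had 3360, 3793 and 3264. The 3 Fezf2 KO values lay inside the wild type range, and the lowest value of all was that of wild type 3. The log2 difference was -0.09 (SE 0.0905, limma adjusted p = 0.888), with a 95% interval of 0.815 to 1.09 for the fold. Leaving out 1 library moved it between -0.034 (without wild type 1) and -0.18 (without wild type 3).

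Slit2 had 599, 599 and 483 in wild type, against 532, 783 and 510 in the knockouts. Fezf2 KO 2 stood above every other library, and the remaining Fezf2 KO libraries lay between the wild type values. The log2 difference was 0.10 (SE 0.171, limma adjusted p = 0.939). Its sign rested on Fezf2 KO 2 and wild type 3: it was -0.10 without the former and -0.0054 without the latter.

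Slit3 had the widest range of the 9 genes over the 6 libraries. Its level was 306, 451 and 144 in wild type, against 324, 652 and 410 in the knockouts. Thus wild type 3 was lowest and Fezf2 KO 2 highest, 4.54-fold apart, while wild type 2 exceeded both Fezf2 KO 1 and Fezf2 KO 3. The coefficient of variation was 51.3% in wild type and 36.8% in Fezf2 KO, against medians of 7.26% and 7.89% over all genes tested. Counting error was 4.8% at the mean of its 167 to 726 reads per library, and higher in wild type 3. The log2 difference of 0.71 (SE 0.405, limma adjusted p = 0.70) was larger in size than that of 97.3% of the genes tested, and its 95% interval ran from -0.22 to 1.64. Single libraries moved it widely, to 0.25 without wild type 3 and to 1.07 without wild type 2, with limma adjusted p above 0.05 each time. Within litter m1 it was 0.31, and within litter m2, with 1 library per genotype, it was 1.51.

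Robo1, a Slit receptor of cortical projection neurons and interneurons, had 10000, 10211 and 9606 in wild type. Fezf2 KO 1 reached 12415, whereas Fezf2 KO 2 had 10216 and Fezf2 KO 3 had 8959, the highest and the lowest value both belonging to the knockout. The coefficient of variation was 3.09% in wild type and 16.6% in Fezf2 KO. The log2 difference was 0.07 (SE 0.104, limma adjusted p = 0.928), and it was -0.055 without Fezf2 KO 1, the library with the choroid plexus markers. The part of those markers in the Robo1 value was not tested.

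Robo2, the closest relative of Robo1 in sequence and function, had 10484, 9713 and 10285 in wild type, against 11292, 11058 and 10229 in the knockouts. Both litter m1 knockouts stood above every wild type library, and Fezf2 KO 3 lay among them. This was the smallest error of the 9 genes (log2 difference 0.10, SE 0.0529, limma adjusted p = 0.683), and a fold above 1.16 or below 0.982 lay outside its 95% interval. Counting error was 0.912% at the mean of its 11131 to 13907 reads. With 1 library left out the log2 difference lay between 0.063 (without wild type 2) and 0.14 (without Fezf2 KO 3).

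Robo3, the divergent Robo that promotes midline crossing of hindbrain and spinal commissural axons, was near the lower limit of measurement. Its levels were 37.4, 25.3 and 28.4 in wild type, against 12.2, 33.2 and 22.1 in the knockouts, from 15 to 40 reads per library. Fezf2 KO 1 was lowest, and Fezf2 KO 2 exceeded wild type 2 and wild type 3. Counting error alone was 18.3% at the mean of these reads, and higher in Fezf2 KO 1. The coefficient of variation was 20.8% in wild type and 46.8% in Fezf2 KO. The log2 difference was -0.50 (SE 0.355, limma adjusted p = 0.78), with a fold interval of 0.40 to 1.24. It was -0.14 without Fezf2 KO 1, -0.83 without Fezf2 KO 2 and 0.016 with library 1 of both genotypes left out, a setting chosen after the data were seen.

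Ntn1 encodes the secreted netrin of the ventral midline and ganglionic eminences. It had 1723, 1380 and 1302 in wild type, against 1108, 1759 and 1260 in the knockouts. The highest and the lowest library were both knockouts from litter m1. The log2 difference was -0.11 (SE 0.172, limma adjusted p = 0.931), -0.30 without Fezf2 KO 2, 0.031 without Fezf2 KO 1 and 0.0095 without wild type 1. Fezf2 KO 1 and Fezf2 KO 3, the libraries with the lowest Ntn1, also had the lowest striatal marker sums. Wild type 1 and Fezf2 KO 2, with the highest Ntn1, had striatal sums of 10688 and 8140. The orders differed in wild type 2, whose striatal sum of 8580 was above that of Fezf2 KO 2 while its Ntn1 was lower. Wild type 3 had a striatal sum of 7636. The part of striatal tissue in the Ntn1 values was not tested.

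Ntn4, a netrin of basement membranes, had 751, 825 and 778 in wild type, against 840, 745 and 769 in the knockouts. The means were 785 ± 37.6 and 785 ± 49.4 (SD, n = 3), with a log2 difference of -0.00057 (SE 0.0791, limma adjusted p = 0.999). Its 95% interval for the fold, 0.881 to 1.13, lay on both sides of 1.

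Dcc, the netrin receptor, came nearest to separating the genotypes. Its counts were 1346, 1193 and 1152 in wild type, against 1382, 1524 and 1306 in the knockouts. One pair broke the order, wild type 1 standing above Fezf2 KO 3. The means were 1231 ± 102 and 1404 ± 111 (SD, n = 3). The log2 difference of 0.19 (SE 0.0865, limma adjusted p = 0.574) had a fold interval of 0.994 to 1.31. It was 0.20 within litter m1 and 0.18 within litter m2. Leaving out 1 library at a time gave 0.13 to 0.26, the highest without wild type 1 (limma adjusted p = 0.52).

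**Figure D2:**
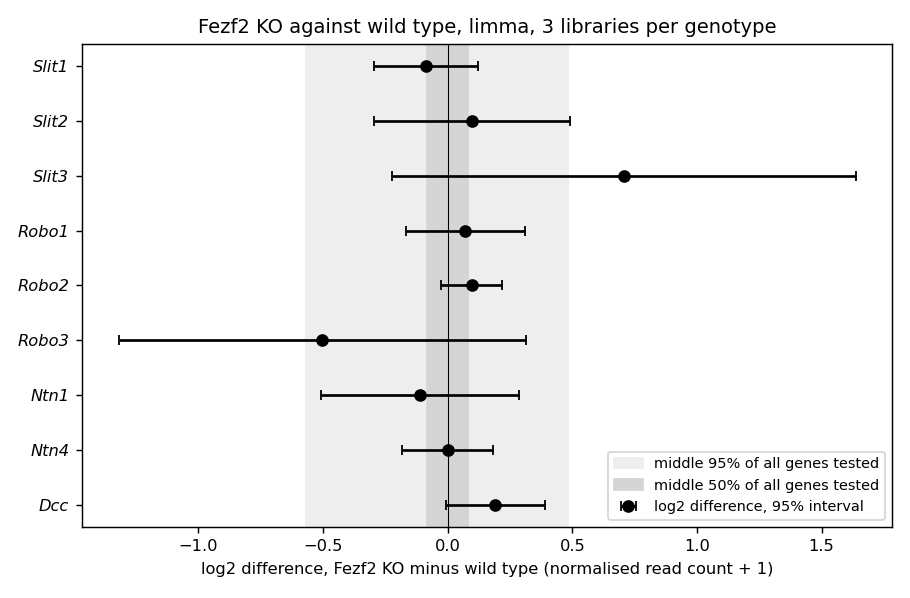
Log2 difference between Fezf2 KO and wild type (horizontal axis, on the normalised read count plus 1) for each gene, with its 95% interval from limma. The dark band holds the middle 50% of all genes tested (-0.08 to 0.08) and the light band the middle 95% (-0.57 to 0.48); every interval includes 0, and those of Slit3 and Robo3 are the widest.

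Several libraries stood to one side of the mean for most of the 9 genes. Wild type 3 and Fezf2 KO 3, the litter m2 pair, were each below the mean of the 6 libraries for 8 of the 9, beside 46.5% and 49.6% of all genes tested. Fezf2 KO 2 was above it for 8 of the 9, beside 49.9% of all genes. The exceptions were Robo3 in wild type 3, Slit3 in Fezf2 KO 3 and Ntn4 in Fezf2 KO 2. The part of litter in these deviations was not tested. Relative to its own mean over the 6 libraries, Fezf2 KO 2 was higher for Slit3 (0.91 on the log2 scale), Slit2 (0.44), Robo3 (0.40), Ntn1 (0.33) and Dcc (0.22), and within 0.09 of the mean for Slit1, Robo1, Robo2 and Ntn4. Wild type 3 was lower for Slit3 (-1.26), Slit2 (-0.26), Dcc (-0.19), Slit1 (-0.14) and Ntn1 (-0.11), and Robo1, Robo2 and Ntn4 were -0.084 to -0.012 there. In Fezf2 KO 3 the 8 lower genes lay between -0.185 (Robo1) and -0.006 (Dcc). Fezf2 KO 1 was lower for Robo3 (-0.98) and Ntn1 (-0.34) and higher for Robo1 (0.29). Beside these, the 6 thalamic markers summed to 2478 to 2781 in the 6 libraries. Their mean deviation was 0.46 in Fezf2 KO 2, 0.24 in wild type 1, -0.39 in Fezf2 KO 1 and -0.40 in wild type 3, with genes of low level among them (Gbx2 at 1.62 to 22.5 and Lhx9 at 7.73 to 33.2). The mean deviation of the striatal markers was -1.24 in Fezf2 KO 1. Whether tissue outside the cortex contributed to the levels of the 9 genes was not tested.

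**Figure D3:**
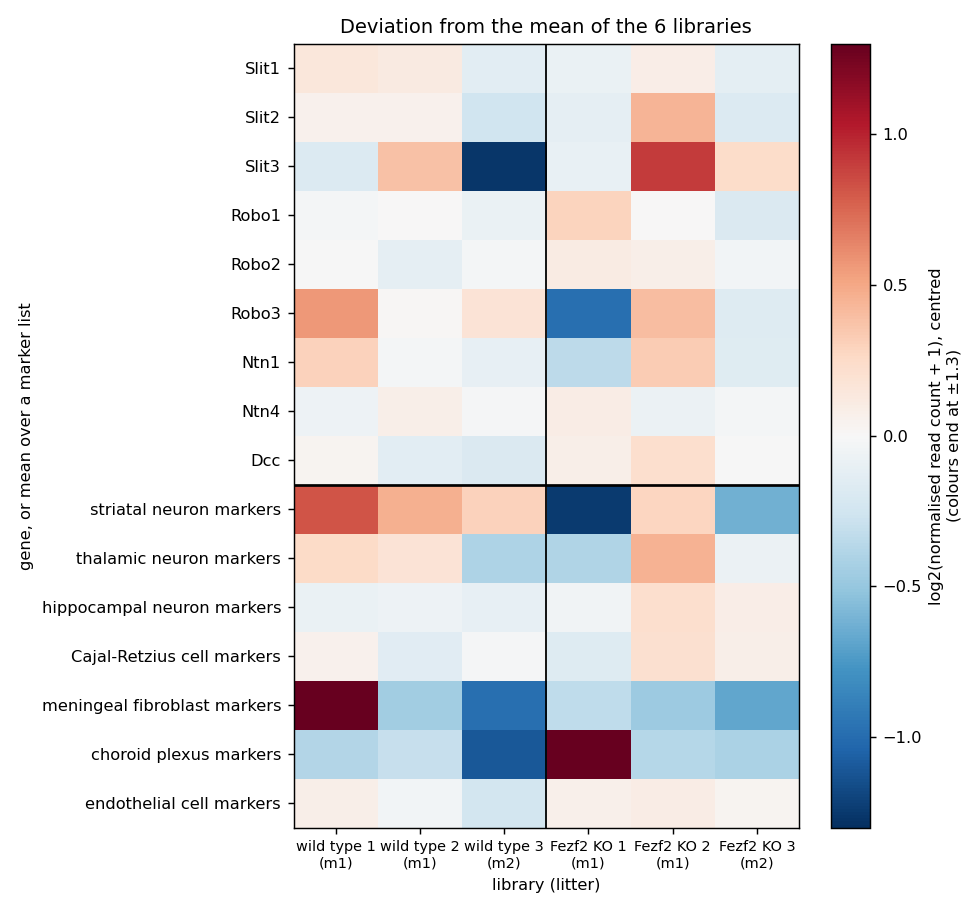
Deviation of each gene (upper rows) from its own mean over the 6 libraries, as log2 of the normalised read count plus 1. Lower rows give the mean deviation of the striatal, thalamic, hippocampal, Cajal-Retzius, meningeal, choroid plexus and endothelial marker lists. Red is higher and blue lower; the scale ends at ±1.3, so the meningeal list in wild type 1 (2.91) and the choroid plexus list in Fezf2 KO 1 (2.56) lie beyond it.

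The genes most like a member were sought for Slit3 and Dcc, the ligand and the receptor with the smallest unadjusted p, among 14562 other genes with a mean of at least 50. Likeness was the root mean square distance between centred log2 values over the 6 libraries. Nearest to Slit3 were the assembled noncoding transcript linc-Ndufb8 (0.187), the cerebellin gene Cbln4 (0.208) and the proline transporter gene Slc6a7 (0.216). Slc6a7 had its lowest level, 502, in wild type 3 and its highest, 1605, in Fezf2 KO 2. Nearest to Dcc were the angiomotin gene Amot (0.0307), the fucosyltransferase gene Fut4 (0.031) and the Src family kinase gene Yes1 (0.0349). The root mean square deviation of the member from its own mean was 0.668 for Slit3 and 0.134 for Dcc. The genes were picked for likeness, so the match of Slc6a7 in single libraries follows from that choice.

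Other genes of these pathways were taken from a list of 57, of which 56 were tested. Among them 1 rose and 1 fell by limma, beside 0.404% and 0.308% of all genes tested, and the median log2 difference was 0.04. The genotypes did not overlap for 13 higher genes of the list (23.2%) and 4 lower ones (7.14%), beside 7.6% and 6.85% of all genes. At an unadjusted p under 0.05, 12 of the 56 passed, 9 higher and 3 lower, beside 4.66% and 4.37% of all genes. The list was drawn up with earlier results of these data known, so its shares cannot show an excess over all genes.

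The gene that rose was Ntng2. It encodes a membrane-anchored netrin-G, a relative of the netrins that does not bind Dcc and holds presynaptic axons to NGL adhesion proteins. It reached 13471, 11374 and 13810 in the knockouts, against 7739, 9296 and 7127 in wild type. All Fezf2 KO libraries lay above all wild type libraries, with means of 12885 ± 1320 and 8054 ± 1118 (SD, n = 3). The log2 difference was 0.68 (SE 0.107, limma adjusted p = 0.035), and 0.55 within litter m1 and 0.95 within litter m2. The call was lost in several settings. Limma's adjusted p was 0.0584 with litter added as a term, 0.338 with litter m1 by itself and 0.229 with library 1 of both genotypes left out. Leaving out a single library gave 0.114 (wild type 1), 0.113 (wild type 3), 0.0958 (Fezf2 KO 1) and 0.144 (Fezf2 KO 3). A noncoding transcript on the same strand shares 546 exonic bases with Ntng2 in GENCODE M21, so the origin of those reads is uncertain.

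The gene that fell was Rgma, which encodes a membrane-anchored repulsive ligand of neogenin, the relative of Dcc. Knockouts had 15442, 15907 and 15911, against 20746, 23026 and 20148 in wild type. The 3 knockouts lay close together and below every wild type library. The means were 21307 ± 1519 and 15753 ± 269 (SD, n = 3), a log2 difference of -0.43 (SE 0.0539, limma adjusted p = 0.0111). It was -0.48 within litter m1 and -0.34 within litter m2. The adjusted p in limma was 0.0589 when Fezf2 KO 3 was left out, 0.117 with litter m1 by itself and 0.0872 with library 1 of both genotypes left out. An antisense gene shares 258 exonic bases with Rgma, and as no source gives the strandedness of the libraries, reads of the pair cannot be told apart there.

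Among the other netrin and Slit receptors, 0 of 8 passed limma, 2 had an unadjusted p under 0.05 (9.03% of all genes did), and DESeq2 called 1 (2.3% of all genes). This was Unc5c, a receptor for repulsion by netrin, with 1206, 1310 and 1520 in wild type, against 2341, 2025 and 1756 in the knockouts. Its genotypes did not overlap, as in 14.5% of all genes tested. Its log2 difference of 0.60 (SE 0.120) had an adjusted p of 0.0866 in limma, 0.0906 in edgeR and 0.00017 in DESeq2. It was 0.79 within litter m1 and 0.21 within litter m2. Neo1, the neogenin gene, had 14822 ± 2250 in wild type and 18310 ± 1013 in Fezf2 KO (SD, n = 3), again without overlap, with a limma adjusted p of 0.342.

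**Figure D4:**
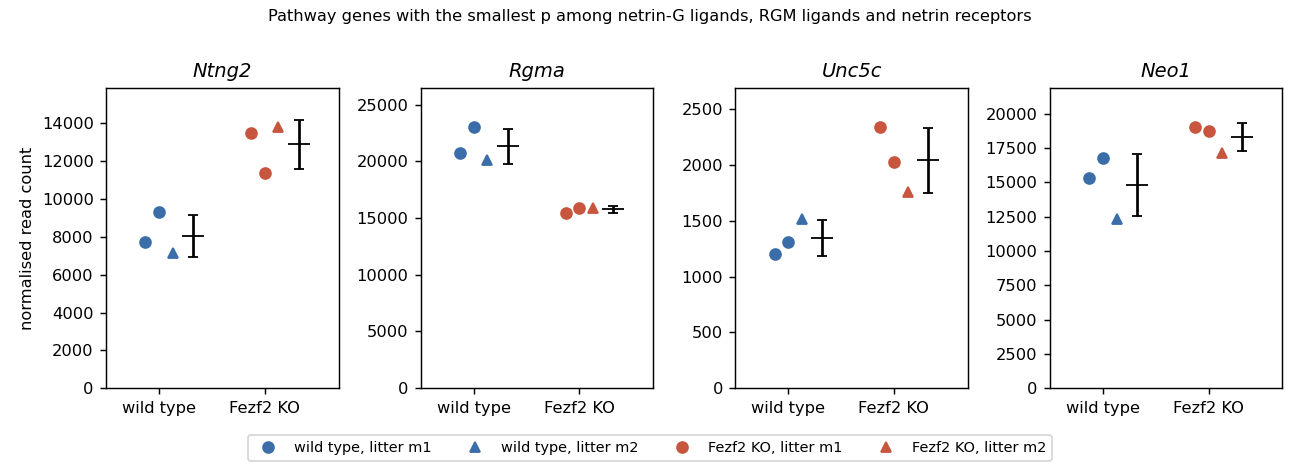
Normalised read count (vertical axes, from 0) of Ntng2, Rgma, Unc5c and Neo1 in each library, coloured and shaped by genotype and litter, with bars for the mean ± SD of 3 libraries. The genotypes do not overlap in any panel, and Ntng2 and Rgma passed the test over all genes. The genes shown were picked for a small p within their roles, and 14.5% of all genes tested did not overlap.

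Of the other ligands and modulators, Nell2, a ligand of Robo3, had 29746 ± 686 in wild type and 32394 ± 1391 in Fezf2 KO (limma adjusted p = 0.385). Ntn3 had 2695 ± 139 and 2929 ± 112 (limma adjusted p = 0.624), and it shares exonic bases with 2 neighbouring genes. Ntn5, at 4.06 to 26.2 in the 6 libraries, did not pass the filter and was the one listed gene not tested. Of the 5 genes of heparan sulfate synthesis, a sugar chain that Slit needs to signal through Robo, 0 passed limma and 2 had an unadjusted p under 0.05, beside 9.03% of all genes. These were the chain polymerase gene Ext1 (3454 ± 213 and 4119 ± 126, limma adjusted p = 0.14, DESeq2 0.0101) and the sulfotransferase gene Hs6st1 (10487 ± 714 and 11829 ± 596, limma adjusted p = 0.399).

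Inside the growth cone, 0 of 4 Slit-Robo GTPase activating protein genes passed limma, and 0 had an unadjusted p under 0.05. Srgap2 had a log2 difference of 0.09 and Srgap3 of 0.08. Of 11 adaptors and actin regulators 0 passed, with 4 at an unadjusted p under 0.05 (2 higher and 2 lower), beside 9.03% of all genes. Trim67, a ubiquitin ligase gene that interacts with Dcc, had 43967 ± 1700 in wild type and 49081 ± 1176 in Fezf2 KO (limma adjusted p = 0.176), and Wasl, an activator of actin branching, had 1864 ± 53.2 and 2099 ± 23.4 (limma adjusted p = 0.315). The lower pair, named here after their values were seen, were the adaptor gene Nck1 (134 to 157 in wild type and 104 to 122 in Fezf2 KO, limma adjusted p = 0.324) and the actin regulator gene Vasp (3012 to 3452 and 2797 to 3003, limma adjusted p = 0.462). Kinases and phosphatases (7) and proteins of receptor proteolysis (4) held 0 changed genes by limma, with 1 and 0 at an unadjusted p under 0.05. Named members were Fyn (log2 difference 0.10) and Abl1 (0.08), and Adam17 (-0.17) and Adam10 (-0.06). In these roles edgeR and DESeq2 called 0. Unc5c, Hs6st1, Trim67, Srgap3 and Adam17 also share exonic bases with another gene in GENCODE M21.

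**Figure D5:**
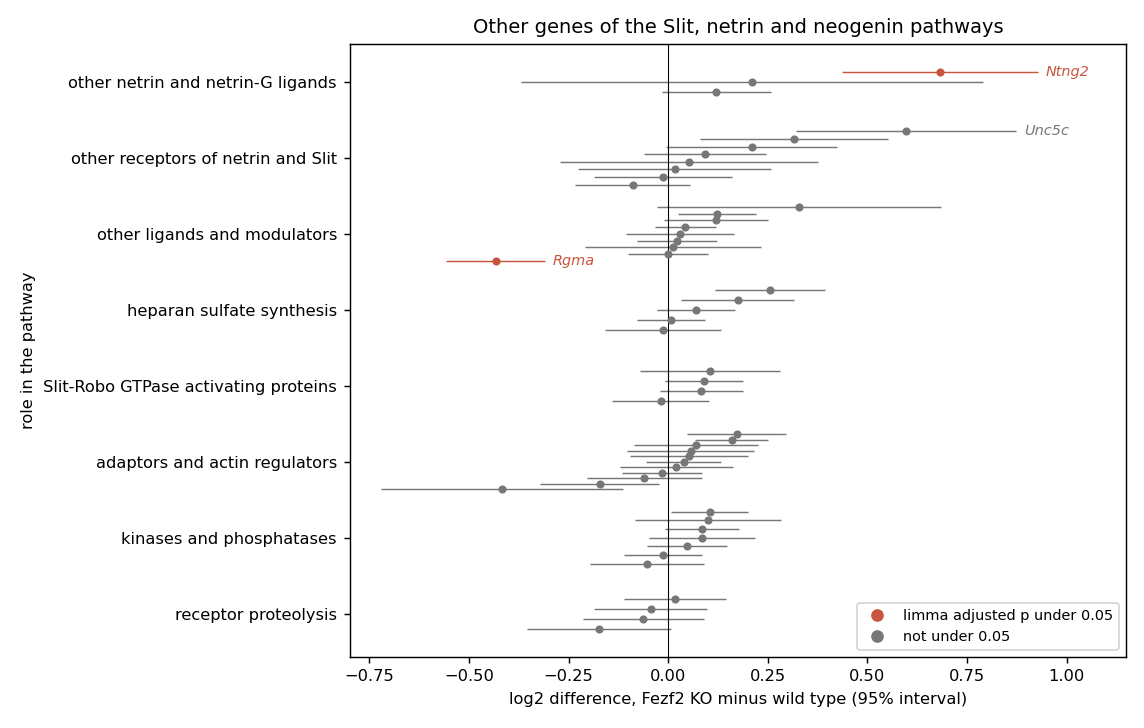
Log2 difference between Fezf2 KO and wild type (horizontal axis) for 51 of the tested pathway genes, grouped by role, each with its 95% interval from limma. Red points, Ntng2 at 0.68 and Rgma at -0.43, passed an adjusted p of 0.05, and the other 49 are grey.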

How the data were processed

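The deposited signal was a table of read counts per gene that the authors had divided by 1 size factor per library, not scaled to gene length. The submitters' processing notes list mm9 as the build and DESeq, STAR and Bowtie as tools, with versions and settings not given in the sources used here. Each library's values were whole multiples of 0.812 to 0.936 (100% within 0.006), which gave back whole reads. A count of 0 allows up to 3 reads. Such limits cover counting error only.

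Limma 3.58.1 in R 4.3.3 was fitted to log2(value + 1) with genotype as the single term and a variance trend, for 17557 genes with at least 10 in at least 3 libraries, and p-values were adjusted over all of them. Differences on that scale understate the change of low genes. EdgeR 4.0.16, DESeq2 1.42.0 and limma-voom ran on the recovered reads as alternatives. Limma and edgeR were also run on simulated data, 3 libraries against 3. There limma recovered 26.7% of 1.5-fold and 70% of 2-fold changes, and edgeR 27.3% and 70%. Those data held 22813 genes, 200 of them changed, which is more genes than the 17557 kept by the filter. Recovery of changes at the levels and spread of the 9 genes was not tested. False genes made up 6.37% of the calls by limma and 6.34% of those by edgeR. The 9 genes, the pathway list and the marker lists were chosen with earlier results of these data known. Named genes were the 9, Fezf2, and in each pathway role those that passed plus the 2 with the smallest p. Some listed genes are not reported here.

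Litter is a pairing given by the labels. Deviations from the genotype mean correlated across genes (not independent replicates) at -0.137 to 0.223 within a litter and at -0.162 to -0.0383 across litters. Symbols matched GENCODE M21 (GRCm38), which was used for exon length and overlap, not coordinates. Counts of any 2 libraries differed beyond sampling noise (chi-square over its degrees of freedom, 8.86 to 33.0). Figures used matplotlib 3.10.9 in Python 3.11.15.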

Additional observations from a re-analysis of the deposited data

Results flagged for a closer look

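For 3 of the 9 genes, every litter m1 knockout lay on one side of its wild type litter mates and the litter m2 knockout lay on the other side of its own. Slit1 was lower in litter m1 (log2 difference -0.14) and at 3264 against 3249 in litter m2, a difference between litters of 0.142 in which the litter m2 part (0.0065) is under the counting error of 1.56%. Robo1 was higher in litter m1 (0.16) and lower in litter m2 (-0.10), a difference of -0.257; in litter m1 Fezf2 KO 2 and wild type 2 were at 10216 and 10211, closer than the counting error of 0.923%. Robo2 was higher in litter m1 (0.15) and nearly level in litter m2 (-0.0079), a difference of -0.155 in which the litter m2 part is under the counting error of 0.912%. Tested as an interaction of genotype and litter in limma, with 1 library per genotype in litter m2, each had an adjusted p of 0.9998.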

How the results depend on the processing

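All 9 genes stayed above the threshold under all 16 alternatives, that is 0 members changed in each. The number of changed genes among all tested, 125, was 403 by DESeq2, 29 in litter m1 alone, 57 with library 1 of both genotypes left out (chosen after the data were seen), and 61 to 119 with 1 library left out. With litter as a replicate block it was 138. The number of changed pathway genes, 2, was 4 by DESeq2, 1 with litter as a replicate block (Rgma), 0 in litter m1 alone, 0 with library 1 of both genotypes left out, and 0 to 2 with 1 library left out. Fewer libraries alone can lower such counts; for the other changes the cause was not tested. With the block no member and no other pathway gene was called. At an unadjusted p under 0.05 the counts were then 1 of 9 members and 14 of 56 pathway genes, beside 1851 of 17557 genes tested. That pathway count was 12 in the main fit, beside 1586 of all genes. With library 1 of both genotypes left out it was 7, beside 1356 of all genes. Fezf2, the marker lists and the noncoding transcripts are not given with the block.

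The sign of 5 members changed. With 1 library left out, the log2 difference ranged from -0.10 to 0.21 for Slit2, -0.055 to 0.18 for Robo1, -0.30 to 0.031 for Ntn1 and -0.051 to 0.036 for Ntn4. With library 1 of both genotypes left out it was -0.050 for Robo1, 0.016 for Robo3 and 0.15 for Ntn1, and in litter m1 alone it was 0.0071 for Ntn4. Slit1, Slit3, Robo2 and Dcc kept their sign under all 16 alternatives. Counting error, at the mean reads of a gene, was 18.3% for Robo3 and at most 4.8% for the other 8 genes.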

Other observations

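The table also lists assembled noncoding transcripts named after these genes, singled out here after their values were seen. Their positions relative to the genes are not given in the table. A transcript named linc-Robo2-2 had 73.9, 70.7 and 84.2 in wild type, against 50.3, 53.9 and 63.6 in the knockouts, with a log2 difference of -0.44. In linc-Robo2-3 the order was the opposite, with 102, 97.7 and 115 in wild type against 155, 127 and 123 in the knockouts, a log2 difference of 0.35. Neither pair of groups overlapped, as in 14.5% of all genes tested, and neither transcript passed limma (adjusted p = 0.437 and 0.509). The level of Robo2 itself overlapped between genotypes. The transcripts linc-Robo2-1 (log2 difference -0.06) and linc-Robo1-1 (-0.21) overlapped between genotypes, as did both entries named linc-Ntn4-AS.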
